A study of Sus scrofa with 6 samples.

Results

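Immediate early genes are genes whose transcription starts within minutes of a signal, without new protein being made first. JUN, JUNB, FOS and ATF3 encode basic leucine zipper proteins that pair with each other in the AP-1 and related complexes, EGR1 encodes a zinc finger factor, NR4A1 an orphan nuclear receptor and MYC a factor that drives growth and ribosome production. In skeletal muscle they respond to contraction, calcium, stretch, injury and stress hormones.

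These 7 genes were looked up on one-colour Agilent pig arrays of longissimus dorsi muscle (LDM), a fast and glycolytic muscle of the back, and psoas major muscle (PMM), a slower and more oxidative muscle under the spine, with 3 arrays per muscle. All arrays came from Landrace female pigs of 210 days that had been weaned at 28 days. The pigs were fasted for 24 h, stunned with an electric current and bled, so that both muscles shared the same slaughter and no unstunned or resting muscle served as a control. No group carried a transgene or a drug. The study's methods took both muscles from the same 3 pigs, whereas the labels give only a muscle and a replicate number.

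A search by gene symbol, by symbol in brackets or by protein name in the description found 1 probe, for MYC. Another 3 probes were reached through other spellings in the files (C-JUN for JUN, EGR-1 for EGR1 and a description of transcription factor jun-B for JUNB). Thus 4 of the 7 genes were matched to a probe, with 1 probe each, among 3531 named genes. Only 5210 of the 43603 probes could be given a gene name, so a gene without a match may still have an unnamed probe. Below, a gene is said to have a probe where a named probe was matched to it. No probe was matched to FOS, ATF3 or NR4A1, and these 3 genes were not analysed here. JUN, JUNB and MYC were well above background on all 6 arrays and entered the test. EGR1 was not well above background on any array and did not.

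The measurements rest on the following probes, shown because each gene has only 1 matched probe and its reading is that of these letters alone. They are given from the 5′ end as printed in the array files, whole for JUN and EGR1 and as the first 30 of 60 bases for JUNB and MYC.
JUN: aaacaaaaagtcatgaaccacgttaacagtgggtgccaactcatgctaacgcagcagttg
EGR1: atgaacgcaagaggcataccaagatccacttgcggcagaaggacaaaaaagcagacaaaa
JUNB: ccccgtctttaaagagtttattttaagatg
MYC: tgggactaaaaggcctagacataatataaa
Guanine and cytosine made up 45% of the whole probe for JUN and EGR1, 36.7% for MYC and 35% for JUNB, against a median of 40.0% over all probes and a range from 35% to 45% between the 5th and 95th percentiles. A different hybridization strength of each probe means that the level of one gene cannot be set against that of another, and each gene was compared only with itself across arrays.

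The labelled tissue was checked with marker genes. All 20 tested skeletal muscle fibre markers of 21 listed were well above background on every array, and their summed level, in multiples of the array's 75th percentile of intensity, was 8680 to 13900 in LDM and 10400 to 16500 in PMM. The log2 difference PMM minus LDM was 1.47 for MB, the oxygen store myoglobin, and 1.03 for TNNI1, the slow troponin I. Neither passed without pairing (limma over genes, adjusted p = 0.915 and 0.999) and both did with the replicate block (0.0026 and 0.0080). They were 2 of 3 fibre markers of 20 called with the block, where 7.1% of all named genes were called. The slow markers MYH7 (0.46) and TNNT1 (0.26) were not. Nor were the fast markers MYH1 (0.08), MYH4 (-0.10), MYL1 (0.05), MYLPF (-0.06), TNNC2 (-0.01), TNNI2 (-0.09) and TNNT3 (0.40). Of the 20 fibre markers 15 were higher in PMM and 5 lower, so the fast markers did not set LDM above PMM. Same-numbered arrays of LDM and PMM deviated together from their muscle means, with correlations over all tested probes of 0.62, 0.70 and 0.56 for numbers 1, 2 and 3. Numbers 2 and 3 each lay on 1 slide and number 1 on 2 slides, and each number had its own scan day, so that replicate number and scan day cannot be told apart. If the numbers follow the 3 pigs, the pig cannot be told apart from them either. RNA was measured in bulk tissue, where a smaller share of cells of one type and less RNA per cell cannot be told apart.

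JUN, the core DNA-binding partner of AP-1, gave a bright signal in both muscles. The processed intensity of its probe was 106000, 97700 and 100000 in LDM 1, 2 and 3, and 155000, 116000 and 107000 in PMM 1, 2 and 3. Divided by the 75th percentile of each array and put on the log2 scale, the levels were 7.28, 6.79 and 7.25 in LDM and 8.02, 7.19 and 7.28 in PMM. PMM 1 stood above every other array and LDM 2 below every other array, and the groups overlapped because PMM 2 lay under LDM 1 and LDM 3. The means were 7.11 ± 0.28 in LDM and 7.50 ± 0.46 in PMM (SD, n = 3), a difference of 0.39 (SE 0.34, 95% interval -0.40 to 1.18) or 1.31-fold. It did not pass the test over 25835 probes (limma, adjusted p = 1), and the exact two-sided permutation test over the 6 arrays gave p = 0.4, where 0.1 is the smallest p the design allows. Without PMM 1 the difference was 0.13.

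JUNB, an AP-1 subunit that can oppose JUN on its targets, had intensities of 7040, 16100 and 14200 in LDM and 7900, 16000 and 14500 in PMM. Its log2 levels were 3.37, 4.18 and 4.43 in LDM against 3.73, 4.33 and 4.40 in PMM. Both arrays numbered 1 were low, the other 4 lay close to each other, and the muscles overlapped throughout. The means of 4.0 ± 0.55 and 4.16 ± 0.37 (SD, n = 3) differed by 0.16 (SE 0.38, 95% interval -0.71 to 1.02), a 1.12-fold difference with limma's adjusted p = 1 and an exact permutation p = 0.7. Its direction rested on LDM 1, since the difference was -0.15 without that array.

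MYC, which the stimulated cell induces as part of the growth response, had intensities of 626, 1080 and 1520 in LDM and of 993, 1150 and 1590 in PMM. On the log2 scale the levels were -0.12, 0.29 and 1.21 in LDM and 0.74, 0.54 and 1.21 in PMM. LDM 1 was the lowest array, LDM 3 and PMM 3 were the highest and equal to each other at this precision, and the groups overlapped. The means were 0.46 ± 0.68 in LDM and 0.83 ± 0.35 in PMM (SD, n = 3). The difference of 0.37 (SE 0.41, 95% interval -0.56 to 1.30), or 1.29-fold, did not pass limma's test (adjusted p = 1), and the exact permutation test gave p = 0.4. Without LDM 1 the difference was 0.08.

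EGR1, a zinc finger factor induced through serum response elements, gave only background-level signal. Its intensity was 7.59, 13.0 and 7.79 in LDM and 9.06, 20.4 and 10.8 in PMM, with no array marked as well above background. No fold was taken from these readings. With 1 probe, a low level of the transcript and a weak probe cannot be told apart. EGR3, a related factor of the same family read by a probe that was well above background on all 6 arrays, differed between the muscles by -0.18 on the log2 scale (PMM minus LDM, SE 0.33, limma adjusted p = 0.999 over genes). The EGR2 probe, like that of EGR1, was well above background on 0 of 6 arrays.

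**Figure D1:**
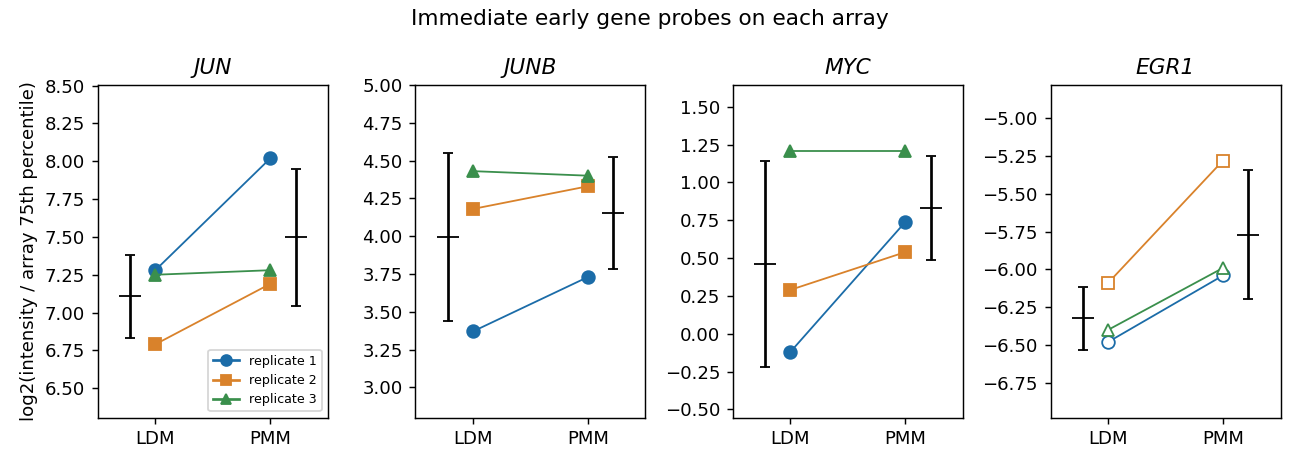
Level of each immediate early gene probe in LDM and PMM, as log2 of intensity over the 75th percentile of the array; each panel spans the same number of log2 units. Points are arrays, lines join arrays of the same replicate number, bars beside them are mean ± SD (n = 3) and open symbols are readings not well above background. JUN, JUNB and MYC overlap between the muscles, and in each of these panels replicate 1 has the steepest line.

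None of the 3 tested genes was called between the muscles, where 0.031% of all probes (8 of 25835) were called. None was separated without overlap either, against 4.08% of named genes with all PMM arrays above all LDM arrays and 3.08% with all below. Within same-numbered pairs, JUN exceeded its LDM level by 0.74, 0.40 and 0.03 for numbers 1, 2 and 3, a mean of 0.39 ± 0.35 (SD, n = 3 pairs). For MYC the pair differences were 0.86, 0.25 and 0.00, with a mean of 0.37 ± 0.44. JUNB differed by 0.36, 0.15 and -0.03, a mean of 0.16 ± 0.19. In each of the 3 genes number 1 had the widest difference and number 3 the narrowest. Both muscles shared a slide in number 2 as in number 3.

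JUN and MYC were higher in PMM in 3 of 3 pairs, MYC in pair 3 by an amount that rounds to 0.00, and 20% of 2893 named genes with a value on every array were higher in 3 of 3 pairs. A further 21.7% were lower in 3 of 3 pairs. The exact two-sided sign-flip test over the pairs gave p = 0.25 for JUN and for MYC, the smallest p that 3 pairs allow, and 0.5 for JUNB. With the replicate number as a block in limma the adjusted p over all probes was 0.55 for JUN, 0.61 for MYC and 0.78 for JUNB. The pair differences over all named genes had medians of 0.12, 0.04 and -0.20 for numbers 1, 2 and 3, an order that the 3 genes share.

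Beside the pair differences stood those of cell type markers. The summed level of 6 tested endothelial markers of 9 listed was 54.9 in LDM 1 and 95.8 in PMM 1, 95.1 and 110 in number 2, and 169 and 165 in number 3. The summed smooth muscle level (2 tested of 4 listed) was 94.8 and 153 in number 1, 117 and 186 in number 2, and 170 and 190 in number 3. Fibroblast sums were lower in PMM in each pair, with 99.3 and 71.4, 166 and 132, and 224 and 153 for LDM and PMM. Leukocyte and macrophage sums were 17.5 and 19.6, 36.8 and 36.3, and 71 and 59.1. Those of 8 tested adipocyte markers of 9 listed were 89 and 95.5, 263 and 271, and 244 and 250. Gene by gene, 6 of these 8 were lower in PMM and 2 higher, with a median log2 difference of -0.47. The adipocyte sum follows mainly its brightest probe, FABP4, which differed by 0.10. Fibre sums were 13900 and 16500, 8680 and 10400, and 12200 and 11500. The part of these cells in the muscle differences of JUN, JUNB and MYC was not tested.

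**Figure D2:**
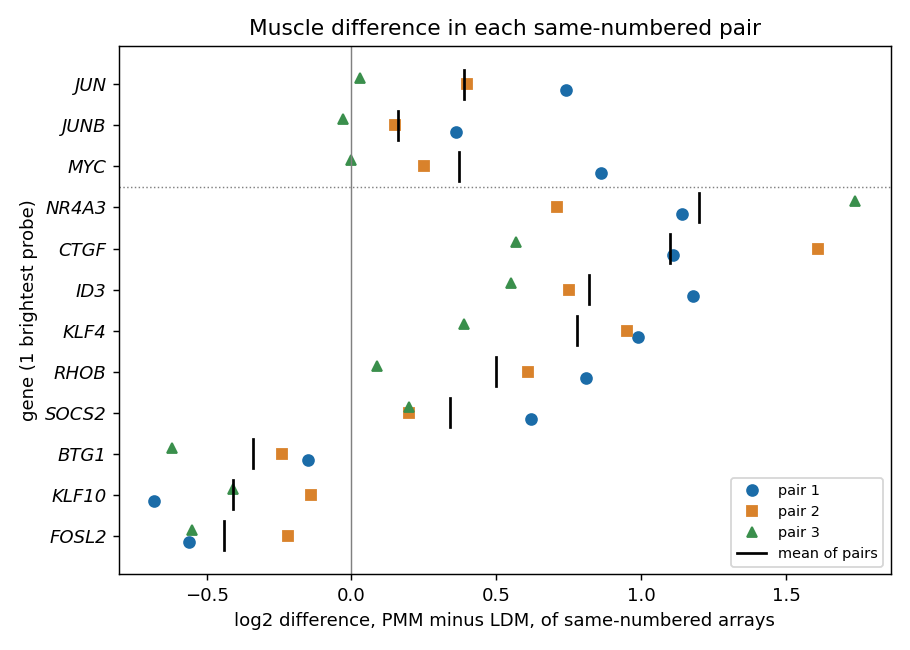
Log2 difference PMM minus LDM within each same-numbered pair of arrays for JUN, JUNB and MYC (above the dotted line) and for genes named from the lists of AP-1 partners, immediate early factors and effectors (below it). Symbols are the pairs and the black bar is their mean. NR4A3, CTGF, ID3, KLF4, SOCS2, RHOB and JUN lie right of 0 in all pairs. JUN, JUNB, MYC and RHOB come close to 0 in pair 3.

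In this normalization all 3 genes ranged more widely over the replicate numbers than between the muscles, although 3 numbers stand against 2 muscles in this comparison. Means over both muscles for numbers 1, 2 and 3 were 3.55, 4.26 and 4.42 for JUNB, a range of 0.87 or 1.82-fold. For MYC they were 0.31, 0.41 and 1.21, a range of 0.90 or 1.87-fold. For JUN the order differed, with 7.65, 6.99 and 7.27 and a range of 0.66 or 1.58-fold. The range of JUN fell to 0.29 without PMM 1 and to 0.27 with quantile normalization, where it was narrower than the muscle difference of 0.32. JUNB was thus lowest in number 1, where JUN was highest, and MYC was highest in number 3.

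Replicate number held 91.9% of the sum of squares of JUNB, 70.9% of that of MYC and 55.6% of that of JUN, and muscle held 4.11%, 15% and 28.7%. The medians over all tested probes were 74.2% for number and 6.54% for muscle, and the median range over numbers was 0.79. JUNB thus lay above the median share for number, and MYC and JUN lay below it. By limma's F test on number over all probes, 25.1% of probes were called, and none of the 3 genes was (adjusted p = 0.058 for JUNB, 0.084 for MYC and 0.17 for JUN). Fitted and adjusted over the 2900 named genes, of which 58% were called, JUNB (adjusted p = 0.012) and MYC (adjusted p = 0.013) differed between numbers and JUN (adjusted p = 0.079) did not pass. The number of probes called fell to 0 when LDM 2, PMM 2 or PMM 3 was left out and to 4 without LDM 3, and was 10019 without LDM 1.

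Other cell types also differed between replicate numbers. The summed level of 9 tested leukocyte and macrophage markers of 11 listed ran from 17.5 in LDM 1 and 19.6 in PMM 1 to 71.0 in LDM 3 and 59.1 in PMM 3, with 36.8 and 36.3 in number 2. All 9 differed between numbers by limma's F test over genes, as did all 6 endothelial markers and all 5 tested fibroblast markers of 7 listed, where 58% of all named genes were called. Of the 20 fibre markers 8 were called, and of the 8 tested adipocyte markers 7. Summed fibroblast levels were 99.3, 166 and 224 in LDM and 71.4, 132 and 153 in PMM. Fibre markers had their highest sums in number 1 (13900 and 16500) and lowest in number 2 (8680 and 10400), an order that JUN also showed. Both were divided by the 75th percentile of the array. That divisor was 678.8, 882.7 and 658.3 in LDM 1, 2 and 3, and 595, 793.7 and 683.7 in PMM. Before division JUN was lowest in LDM 2 (97700) among LDM arrays and in PMM 3 (107000) among PMM arrays. The part of the divisor in the shared order was not tested. The part of these cells in the levels of JUN, JUNB and MYC was not tested.

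**Figure D3:**
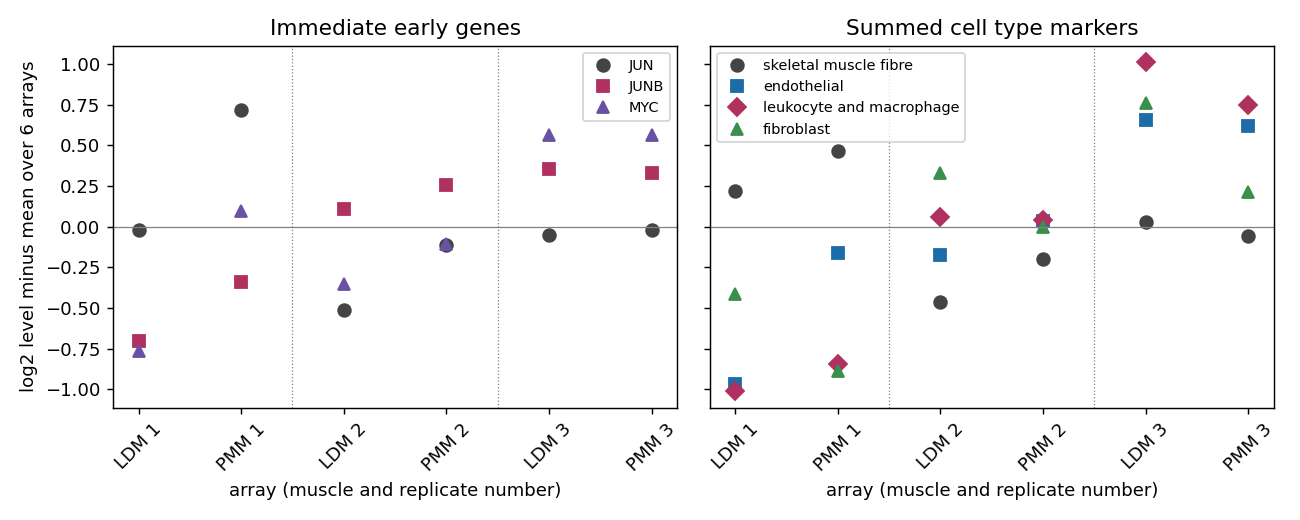
Levels of JUN, JUNB and MYC (left) and summed levels of marker lists (right) on each array, as log2 minus the mean over the 6 arrays; dotted lines part the replicate numbers. JUNB is low on both arrays numbered 1, as are the leukocyte and fibroblast sums. The endothelial sum is lowest in LDM 1, and in PMM 1 it is close to that of LDM 2. JUN and the fibre sum are highest in PMM 1.

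The 3 genes did not vary as one group. Over the 6 arrays Pearson's r was 0.73 between JUNB and MYC, 0.23 between JUN and MYC and -0.40 between JUN and JUNB, given as descriptions over arrays that share pairs, slides and scan days. The mean of their centred levels was -0.50, -0.25 and 0.29 in LDM 1, 2 and 3 and 0.16, 0.01 and 0.29 in PMM. Among 2890 other named genes, those most like this mean were SOX17, a transcription factor known from endothelial cells (r = 0.998), OCLN, the tight junction protein occludin (r = 0.992), PKIG, an inhibitor of protein kinase A (r = 0.985), PEX6, a peroxisome assembly factor (r = 0.985), and CDC42SE1, a small effector of CDC42 (r = 0.982). These values are the highest of 2890 over 6 arrays and are given without a test.

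Of 21 other immediate early transcription factors listed, 11 had a probe and 9 were tested. None was called without pairing (0% of 2900 named genes were called by limma at this threshold, and 109 had an unadjusted p below 0.05). The median difference of the 9 was 0.36 on the log2 scale, against -0.01 over all named genes, with 5 higher and 4 lower in PMM. All PMM arrays lay below all LDM arrays in 1 of the 9, MXI1 (-0.35), against 3.08% of named genes. With the replicate block in the fit over genes, where 7.1% of genes were called, NR4A3, ID3 and KLF4 were called, all 3 higher in PMM, and none lower. In the fit over all probes with the same block none of these probes was called (adjusted p = 0.21, 0.26 and 0.28).

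NR4A3, the orphan receptor NOR-1 of the same family as NR4A1, had log2 levels of -0.14, -1.86 and -0.29 in LDM and 1.0, -1.15 and 1.45 in PMM. Both arrays numbered 2 were low, and within each pair PMM was higher, by 1.14, 0.71 and 1.74. The difference of 1.20 (SE 0.73) corresponds to 2.29-fold, with an adjusted p of 0.999 without the block and 0.0029 with it over genes (limma). The block's call stood without number 1 or 2 and was lost without number 3 (limma, adjusted p = 0.16), where 0 genes were called. Without number 1 or 2 the fit gave the named genes 1 shared standard error (0.28 and 0.35). Those calls therefore follow the size of the difference and do not test the gene's own spread. A second NR4A3 probe, well above background on 5 of 6 arrays, differed by 0.67 (SE 0.32). It did not pass on replicate number (limma's F test over all probes, adjusted p = 0.57, against 0.028 for the first probe).

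ID3, an inhibitor of DNA binding by basic helix-loop-helix factors, had levels of 4.67, 5.85 and 6.46 in LDM and 5.84, 6.60 and 7.0 in PMM. The muscles overlapped, but each PMM array lay above its pair, with a mean difference of 0.82 or 1.77-fold (limma with the block over genes, adjusted p = 0.017). KLF4, a Krüppel-like factor, had levels of -1.26, -0.75 and 0.05 in LDM against -0.27, 0.20 and 0.44 in PMM, a difference of 0.78 or 1.71-fold (adjusted p = 0.026 with the block over genes), and 0.76 at a second probe. Both calls were lost whichever pair was left out, in the fits described for NR4A3. KLF10, a factor induced by TGF-beta, differed by -0.41 on average, with the same sign in all pairs, without passing either test over genes (limma, adjusted p = 0.26 with the block). Between the highest and lowest replicate number NR4A3 ranged by 2.08 at its brightest probe, ID3 by 1.48, ID2, a relative of ID3, by 1.33 and KLF4 by 1.01.

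Among immediate early feedback and effector genes, 10 of 36 listed had a probe and 9 were tested. None was called without pairing, and CTGF was called with the replicate block over genes, higher in PMM, 1 of 9 where 7.1% of all named genes were called. The median difference of the 9 was 0.18, with 5 higher and 4 lower. CTGF, a matrix-associated growth regulator, had levels of 3.34, 3.78 and 4.82 in LDM and 4.46, 5.38 and 5.39 in PMM. Its difference was 1.1 (SE 0.45) or 2.14-fold, with adjusted p = 0.999 without and 0.0051 with the block over genes by limma, and 0.24 with the block over all probes. A second CTGF probe gave 1.18 (SE 0.39). The block's call held without number 1 and was lost without number 2 or 3 (limma, adjusted p = 0.22 and 0.15). As for NR4A3, the fits without number 1 or 2 used 1 shared standard error, and 0 genes were called without number 3.

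RHOB, a small GTPase, differed by 0.50, with 0.81, 0.61 and 0.09 in the pairs, the same order as in JUN, JUNB and MYC, and a range of 1.18 over replicate numbers. BTG1, an antiproliferative gene, differed by -0.34 on average, and neither gene passed the test between muscles, with or without the replicate block. PTGS2, the inducible prostaglandin synthase, had a range of 2.16 between replicate numbers and a muscle difference of -0.13. SOCS2, a brake on cytokine signalling, had a range of 1.21 and a muscle difference of 0.34. A second SOCS2 probe, well above background on all 6 arrays, showed neither, with a muscle difference of 0 (SE 0.34). On replicate number it did not pass (limma's F test over all probes, adjusted p = 0.35, against 0.032 for the first probe). The PTGS2 probe was well above background on 5 of 6 arrays, and with normexp background correction the ranges of PTGS2 and SOCS2 were 0.56 and 0.16 and neither passed (limma, adjusted p = 0.91 and 0.99). Endothelial and smooth muscle sums were also higher in PMM 1 than in LDM 1, as given above, and their part in the differences of CTGF, ID3 and KLF4 was not tested.

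Of 12 other AP-1 family and partner genes 1 had a probe. FOSL2, a FOS-related AP-1 subunit, had levels of 0.27, -0.20 and 0.55 in LDM and -0.29, -0.41 and 0.00 in PMM. Its level was lower in PMM in every pair, with a mean difference of -0.44 (LDM 1.36-fold above PMM), the opposite sign to JUN, JUNB and MYC, and did not pass (limma, adjusted p = 0.999, and 0.21 with the block over genes).

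Upstream of these genes lie kinases and factors that switch them on. Of 51 listed, 20 had a probe and all 20 were tested, none was called with or without the replicate block over genes, and 10 were higher and 10 lower in PMM with a median of -0.01. SRF, the serum response factor, differed by -0.18 and CREB1, the cyclic AMP response factor, by 0.07. The widest differences were those of NRAS, a RAS GTPase (-0.53), CAMK2D, a calcium-dependent kinase (-0.51), and CRTC2 and ATF1, both CREB partners (-0.36 each). NRAS was the 1 gene of the 20 with all PMM arrays below all LDM arrays, against 3.08% of named genes. Its difference was -0.087 with normexp background correction. The difference of CAMK2D rested on single arrays, since it was -0.042 without LDM 1 and -0.049 without PMM 3. Of the 20, 12 differed between replicate numbers by limma's F test over genes, a share set against 58% of all named genes. The ranges were 1.61 for CAMK2D, 1.36 for MAPK13, a p38 kinase, and 1.08 for ATF2, a partner of JUN. MAP2K1, the kinase above ERK, had the widest range among the brightest probes, 1.94, with means of -1.07, -2.99 and -3.01 for numbers 1, 2 and 3. A dimmer probe of MAPK14, a p38 kinase, ranged more widely. Its levels for numbers 1, 2 and 3 were 0.72, -1.36 and -2.08 in LDM and 0.52, -0.81 and -2.13 in PMM. The brightest MAPK14 probe ranged by 0.81.

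The stress response genes that act around ATF3 had 11 of 17 listed with a probe and tested, with a median difference of -0.05 and none called with or without the replicate block over genes. With the slide as a random block CDKN1A (-1.02, limma adjusted p = 0.021) and DDIT4 (-0.68, adjusted p = 0.030) were called. That fit called 167 of 2900 named genes. It does not pair LDM 1 with PMM 1, which lay on different slides. CDKN1A was also called with the replicate block without number 1 (limma, adjusted p = 0.0041), where 131 genes were called, in the fit with 1 shared standard error. CDKN1A, the cell cycle inhibitor p21, differed by -0.75 on average, with pair differences of -0.10, -1.51 and -0.64. DDIT4, a stress-induced inhibitor of mTOR, had levels of 6.48, 6.19 and 6.92 in LDM and 6.07, 5.70 and 6.02 in PMM, with all PMM arrays below all LDM arrays and a mean difference of -0.60. Its adjusted p was 0.999 without and 0.084 with the replicate block over genes (limma). DDIT3, the stress-induced factor CHOP, was separated the other way at a low signal, with a difference of 0.40. Its levels were -3.80, -3.62 and -3.90 in LDM and -3.53, -3.31 and -3.27 in PMM. It did not pass (limma over genes, adjusted p = 0.999, and 0.27 with the replicate block). DDIT4 and DDIT3, 2 genes of 11, stand against shares of 3.08% with all PMM arrays below and 4.08% with all above, over all named genes. MDM2, a ubiquitin ligase, differed by -0.58 and VLDLR, a lipoprotein receptor, by -0.57. The difference of VLDLR rested on single arrays, since it was -0.095 without LDM 1 and -0.156 without PMM 3. ATF4, an activator of the amino acid and unfolded protein responses, differed by -0.31 and by 0.83 between replicate numbers, while VLDLR ranged by 1.60, MDM2 by 0.75 and DDIT4 by 0.53.

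**Figure D4:**
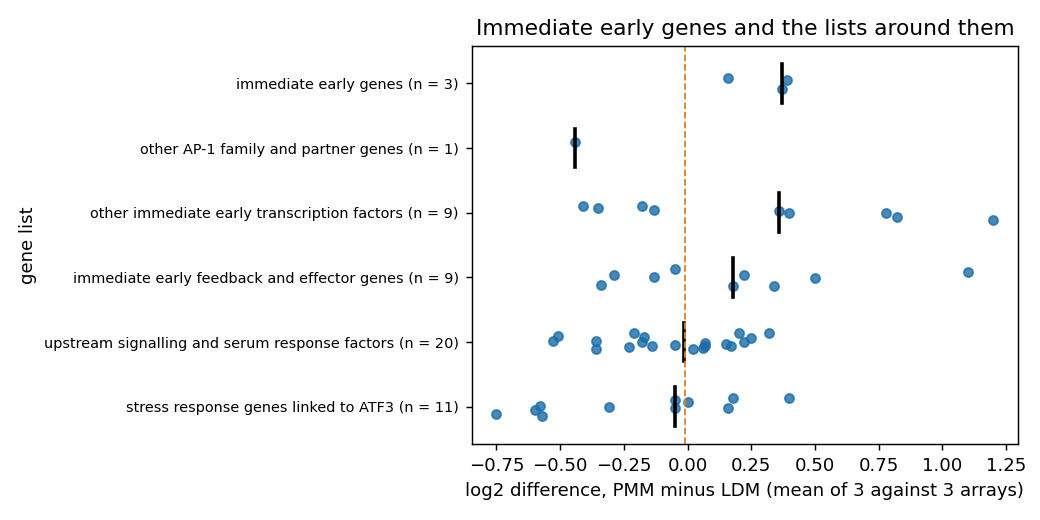
Log2 difference PMM minus LDM of every tested gene in each list (points; cell type marker lists are not drawn) with the list's median (black bar); the dashed line is the median over all named genes, -0.01. The immediate early genes JUN, JUNB and MYC lie between 0.16 and 0.39, and of the genes drawn NR4A3 and CTGF differ by more than 1.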

How the data were processed

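LDM and PMM of female Landrace pigs were measured on 6 arrays. The authors deposited linear Cy3 spot intensities from Agilent Feature Extraction 10.5.1.1, background-subtracted and not normalized between arrays. The deposited flags for outlier spots and for signal well above background were used, and the deposited series table held the same intensities to within a relative difference of 0.0027. Spots well above background numbered 25630 to 31707 on an array, and none was saturated. The number of arrays limits the precision. The extraction text of the labels speaks of adipose tissue, and the samples were taken as muscle.

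Control and outlier spots were left out, repeated spots averaged, and log2 intensity was taken minus the log2 75th percentile of the array. Probes well above background on all 3 arrays of either muscle, with at least 2 values per muscle, were tested with limma 3.58.1 in R 4.3.3 (two-sided, Benjamini-Hochberg, threshold 0.05), over probes and over genes (brightest probe). For the arrays, the study's methods name MultiExperiment Viewer and give no test. Labels do not say that samples of one muscle came from separate animals, and p-values measure the spread between these samples. Replicate numbers were taken as pairs because all 3 correlations exceeded 0.1. Names came from RefSeq accessions and gene numbers (Sscrofa11.1 table), else from the files, with 24 probes named by hand from their description. The fits were checked on simulated data. Alternatives were normalization, background correction, filters, blocks, probe choice and left-out arrays.

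All tested members were named, and of each list up to 4 genes with the widest muscle difference and up to 4 with the widest range over replicate numbers. EGR2, EGR3, SRF, CREB1, DDIT3, MXI1 and MAPK14 were named outside this rule, after their values were seen. So were the adipocyte marker FABP4 and every fibre marker given by name. The members and lists were chosen with earlier results of these data known. Some genes of these lists are not reported here and were left out of the lists' counts.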

Additional observations from a re-analysis of the deposited data

How the results depend on the processing

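JUN and MYC were higher in PMM under all 17 alternatives (0.13 to 0.55 and 0.08 to 0.75 on the log2 scale) and passed the threshold under none. Settings for outlier spots, filters, the replicate block and averaging over probes left the differences of JUN, MYC and JUNB unchanged. These settings add nothing on the direction. JUNB was higher under 15 of 17 and turned to -0.013 with normexp background correction, and ran from -0.15 to 0.38 when single arrays were left out. With the replicate block, which follows the pairing, 17 probes and 206 genes were called in place of 8 and 0, and with the slide as a random block 300 and 167. With the block and number 1, 2 or 3 left out, 131, 135 and 0 genes were called (326, 314 and 516 had an unadjusted p below 0.05). Without number 1 or 2 these fits gave the named genes 1 shared standard error (0.28 and 0.35), so a call there follows the size of the difference. The prior degrees of freedom of limma were 13.4 over genes and 3.52 over probes with the block. Called probes were 0 with the 75th percentile over probes well above background on all 6 arrays, with the series table, with outlier spots kept, with no filter and with the filter on all 6 arrays (unadjusted p below 0.05 in 748, 680, 675, 807 and 575), 1 with normexp, and 0 to 1 with an array left out. For replicate number, limma called 0 of the probes with normexp and 0 with no filter (1406 and 10954 had an unadjusted p below 0.05), and 0 to 10019 with an array left out. The range of JUNB over numbers passed with quantile normalization (1.20), with the percentile over detected probes (1.02), with the filter on all 6 arrays and with adjustment over named genes (both 0.865), the last chosen after seeing the data, as was the block with a pair left out. The range of MYC passed with adjustment over named genes (0.902) and ran from 0.80 to 1.33 with an array left out, past the threshold without PMM 1. With single arrays left out SOCS2 ran from -0.00219 to 0.755 and ATF1 from -0.585 to 0.00712, each changing sign without PMM 3 alone. The cause was not tested.

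Each gene was read by 1 probe on 3 arrays per muscle, and the 95% intervals of JUN, JUNB and MYC still hold differences above 1 on the log2 scale. EGR1 lay too close to background for a comparison.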
